A study of Bos taurus with 16 samples.

Results

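Immediate early response genes are switched on within minutes of a stimulus, without new protein synthesis. The set followed here held 36 genes chosen by name around this response, and not each of them meets that definition. They were the AP-1 and ATF factors, the EGR, NR4A and KLF factors, MYC, the IER genes and the mRNA decay factors ZFP36 and ZFP36L1. The DUSP phosphatases, the BTG and GADD45 growth regulators, RHOB and SGK1 completed the set. For each gene the probe set with a single gene symbol and the highest mean over all arrays was taken. All 36 were measured, each by 1 probe set, among 18435 genes with a single symbol and 26773 probe sets in all.

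The RNA came from needle biopsies of the mammary gland of 16 Parda de Montaña heifers, 1 array per heifer, taken as the first lactation ended and put at once into a preserving solution. Before weaning at 6 months of age, 8 heifers had a starter concentrate beside the milk of their dams (CON) and 8 had the milk of their dams alone (NOCON), and all suckled their dams in sessions of 30 min. The assignment was made at random at birth. From 6 to 15 months the heifers of both groups were split between hay-based rations of 67% forage with 33% concentrate or 87% forage with 13% concentrate. The ration of a given heifer is not labelled, and this factor was therefore not compared. The biopsy is a mixture of cell types, in which fewer cells of a type and less RNA per cell cannot be told apart.

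In most tissues the signal runs from growth factors, stretch or stress through MAP kinases to factors already bound at the promoters, such as SRF with its ELK partners and CREB. FOS, EGR1 and JUNB mRNA then appear and decay again, because the transcripts are short-lived and because ZFP36 and the DUSP phosphatases feed back on the mRNA and on the kinases. In the mammary gland FOS and JUN family members are known, from rodents, for their part in involution after weaning. Immediate early genes are also known to respond to handling of tissue before RNA is preserved, so their co-variation between biopsies is described as well as the feeding contrast. No measure of handling was used here, and its part in any value below was not tested.

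Values are log2 expression, between 2.73 and 12.66 over all arrays, and array medians lay between 4.25 and 4.57. There were 5 arrays with a median correlation with the others of only 0.866 to 0.974 (CON 2, CON 6, CON 7, NOCON 1 and NOCON 5), against 0.986 to 0.989 in the remaining 11. Results that rest on them are given with and without them. The luminal epithelial markers, 10 of 10 measured, averaged 6.24 to 7.03 in CON and 6.84 to 7.19 in NOCON, with CON 7 lowest. All 10 luminal markers had lower means in CON (median log2 difference -0.20, 1 with an unadjusted p under 0.05), and 7 of 10 without the 5 arrays (median -0.03). Endothelial markers averaged 5.13 to 7.07 in CON and 5.53 to 6.96 in NOCON, with CON 7 and NOCON 1 lowest in their groups, and the part of tissue makeup in the results below was not tested. Of the markers of erythrocytes, 5 of 5 measured lay below the median of all probe set means (4.32), as did 5 of 6 of skeletal muscle and 4 of 6 of neutrophils.

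Some of the best known members of the set, FOS among them, gave little signal. EGR1, JUNB, JUN and MYC lay above the median of all probe set means on every array. FOS, the founding partner of the AP-1 dimer, lay at 3.84, 3.95 and 4.29 in CON (lowest, median and highest array) and at 3.86, 4.04 and 4.14 in NOCON. All 16 values were below the median of all probe set means, and the groups overlapped. The residual SD of FOS within groups was 0.12, at percentile 20.1 of all genes. A further 9 members, 10 in all, had a mean below that median, among them FOSL1, EGR2, EGR3, NR4A1, NR4A2, NR4A3 and DUSP2. Signals of different probe sets depend on their probes, so these levels say that the signal is dim, not that one transcript is rarer than another, and differences at dim signal are compressed on the RMA scale.

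Other members were bright. IER2, a nuclear protein of the immediate early class, lay at 8.27, 8.46 and 8.73 in CON and 7.99, 8.57 and 9.03 in NOCON. ZFP36L1, which binds AU-rich elements and speeds mRNA decay, lay at 7.56, 8.78 and 9.13 in CON and 7.74, 9.01 and 9.38 in NOCON. KLF6, a zinc finger factor, lay at 6.38, 7.70 and 7.96 in CON and 6.68, 7.53 and 7.98 in NOCON. The NOCON range of IER2 enclosed the CON range, and the groups overlapped almost fully for the other 2 genes. The plot of levels by heifer shows these 3 genes far above the line of all probe sets.

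**Figure D1:**
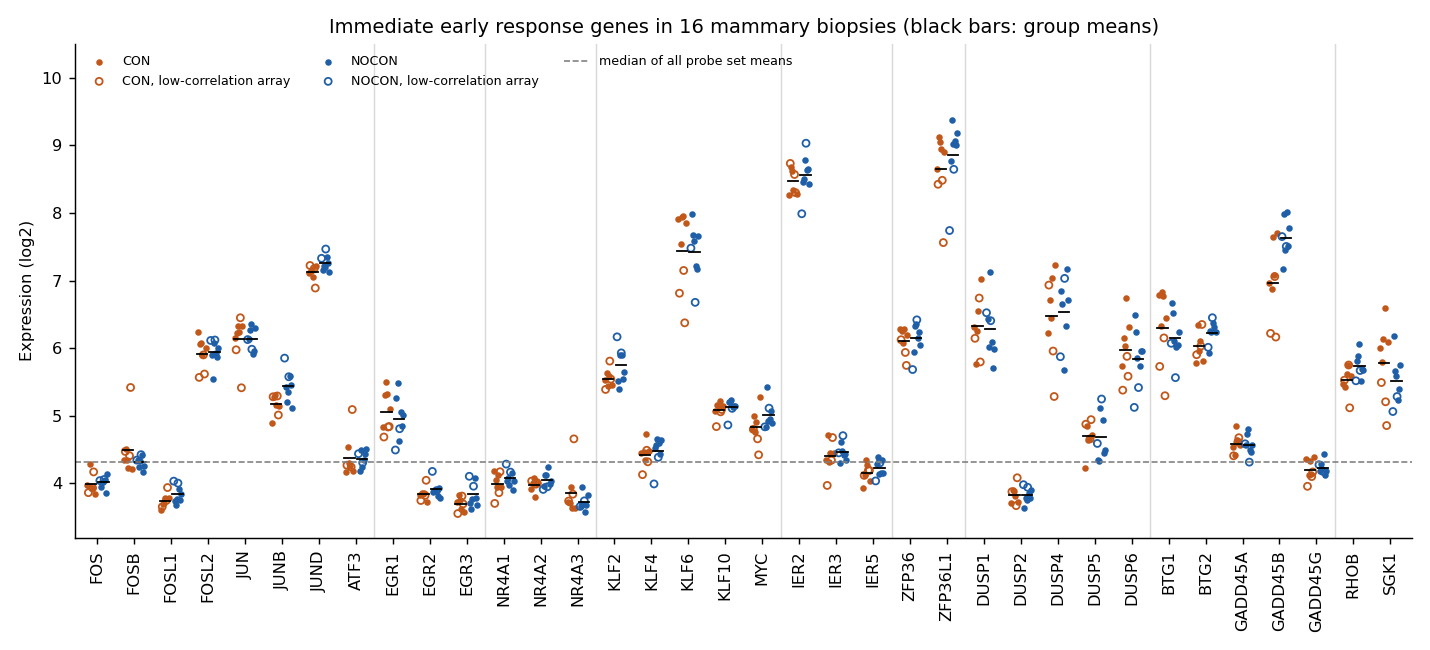
Expression (log2) of the 36 genes, ordered by family, in each of 16 biopsies; black bars are group means, open circles the 5 arrays of low correlation, and the dashed line is the median of all probe set means (4.32). FOS lies below that line on every array, while IER2, ZFP36L1, KLF6 and GADD45B lie well above it, and open circles form many of the extremes.

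How much a member varied between heifers differed widely. The residual SD was over 0.4 for 8 of 36 members (22.2%), against 15.6% of all genes, and its median over members was 0.21, against 0.20 over all genes. The 8 were DUSP4 (0.59), KLF6 (0.51), ZFP36L1 (0.50), SGK1 (0.47), BTG1 (0.46), GADD45B (0.45), DUSP1 (0.44) and DUSP6 (0.43). DUSP4, a nuclear phosphatase of ERK, p38 and JNK, ran from 5.29 in CON 7 to 7.23 in CON 8. DUSP1, the stress-induced MAP kinase phosphatase, ran from 5.70 in NOCON 7 to 7.13 in NOCON 4, which are both arrays of high correlation with the rest. The least variable members were NR4A2 (0.10), EGR2 (0.11) and JUND (0.11), of which NR4A2 and EGR2 were dim. Without the 5 arrays the median residual SD of the members was 0.15.

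The contrast of CON with NOCON asked whether a starter concentrate before weaning was followed by a difference in these genes at the end of the first lactation. No member passed an adjusted p of 0.05 in limma over all probe sets, where 0.0598% of all probe sets did, and the lowest adjusted p was 0.425. Before adjustment 3 of 36 members had p under 0.05, all with lower means in CON, against 8.67% of all probe sets in either direction, 5.1% lower and 3.57% higher in CON. The exact permutation test also gave 3 members, against 10.4% of all probe sets. In no member did the groups separate, as they did in 0.176% of all probe sets. Means were lower in CON for 23 members and higher for 13, where 48.1% of all probe sets were lower. The median log2 difference, CON minus NOCON, was -0.04 over the members and 0.01 over all probe sets. Without the 5 low-correlation arrays 18 members were lower and 18 higher, with a median of -0.0027, and 52.3% of all probe sets were lower. The luminal markers also ran lower in CON over 16 arrays. Markers of myoepithelium and smooth muscle ran higher in CON for 6 of 7 (median log2 difference 0.10), and endothelial markers for 5 of 6 (median 0.04). Without the 5 arrays these counts were the same, with medians of 0.18 and 0.14. The part of these cell types in the members' differences was not tested. Over 16 arrays 63.9% of the members were lower in CON, above the 48.1% of all probe sets, and without the 5 arrays 50%, against 52.3%. The share of members with an unadjusted p under 0.05 in either direction was near the background. With 8 heifers per group the standard error of a member's difference lay between 0.06 and 0.28.

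**Figure D2:**
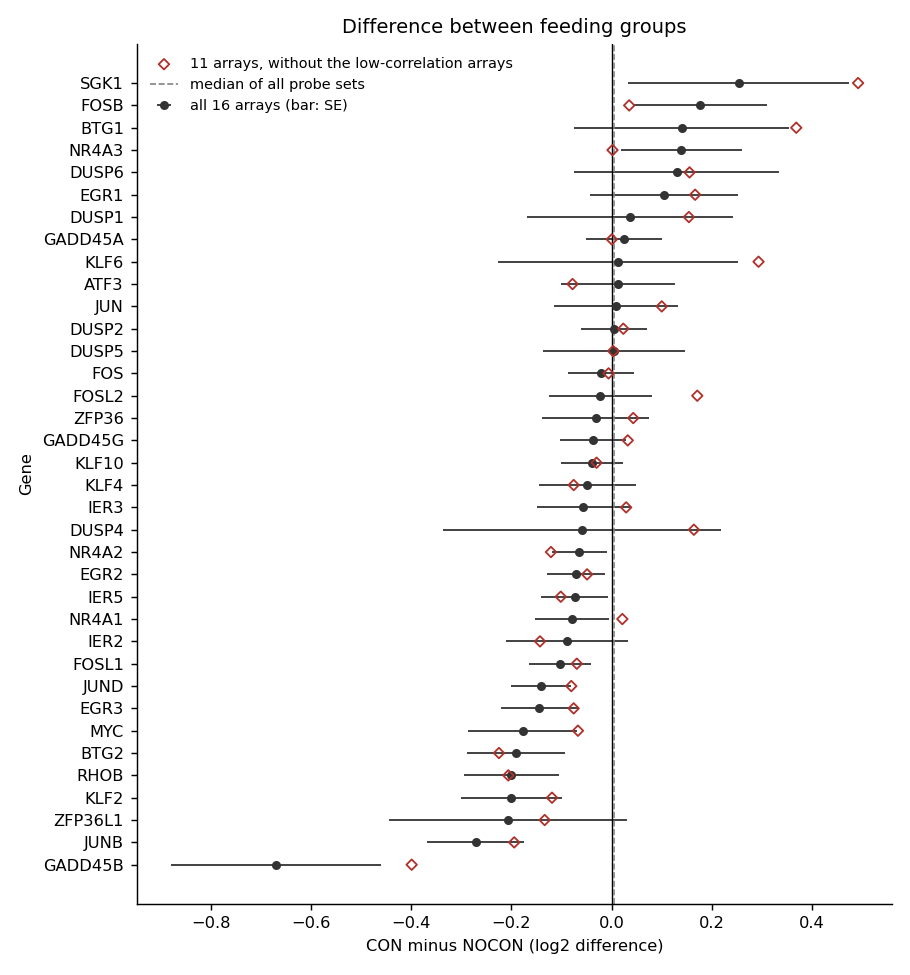
Log2 difference between CON and NOCON for the 36 genes, with its SE from limma on 16 arrays (filled circles) and the difference on the 11 arrays of high correlation (open diamonds); the dashed line is the median of all probe sets (0.01). GADD45B stands lowest at -0.67, its diamond lies at -0.40, and SGK1, BTG1 and KLF6 move to the right without the low-correlation arrays.

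The member with the smallest p was GADD45B, a stress-inducible regulator of the p38 and JNK cascade and of DNA repair. GADD45B lay at 6.17, 7.01 and 7.70 in CON and at 7.18, 7.58 and 8.01 in NOCON. Of the CON arrays, 6 of 8 lay below the lowest NOCON array, and CON 4 and CON 8 lay within the NOCON range. The CON mean was 6.96 ± 0.56 (SD, n = 8) and the NOCON mean 7.63 ± 0.28 (SD, n = 8), a log2 difference of -0.67 (SE 0.21, limma adjusted p = 0.425). The exact permutation test over arrays gave p = 0.00932 before adjustment (two-sided). The lowest GADD45B values were those of CON 7 (6.17) and CON 2 (6.22), both arrays of low correlation, and without the 5 such arrays the difference was -0.40 (SE 0.19). A further limma fit had as covariate the leading principal component of the residuals left after the group means were removed. By construction that component cannot change the difference, which stayed at -0.67, and acts only on the residual variance. The adjusted p of GADD45B was 0.0348 in that fit, which called 1598 of all probe sets. Over all alternatives its adjusted p ran from 0.0348 to 0.679.

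The other growth regulators showed no shared direction. GADD45A, a target of p53, and GADD45G, of the same family, differed by less than 0.1. BTG2, an antiproliferative gene of the immediate early class, lay at 5.78, 5.99 and 6.35 in CON and at 5.92, 6.25 and 6.45 in NOCON. The groups overlapped over most of that range (log2 difference -0.19, SE 0.10, adjusted p = 0.583). BTG1, its paralogue, lay at 5.30, 6.39 and 6.83 in CON and 5.57, 6.09 and 6.67 in NOCON, with a difference of 0.14 (SE 0.21, adjusted p = 0.829). Without the 5 arrays the difference of BTG1 was 0.37 (SE 0.14), and its adjusted p ran from 0.237 to 0.943 over all alternatives.

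Among the AP-1 and ATF genes, 5 of 8 had lower means in CON and 3 higher, where 48.1% of all probe sets were lower. Of the 8, 2 had an unadjusted limma p under 0.05, both with lower means in CON. Of all probe sets, 8.67% had such a p in either direction and 5.1% with a lower mean in CON. JUNB, a JUN family partner in AP-1 that often opposes JUN in growth control, lay at 4.89, 5.22 and 5.31 in CON and at 5.12, 5.44 and 5.85 in NOCON. The 6 highest JUNB arrays were all NOCON, but the groups overlapped between 5.12 and 5.31. The difference of JUNB was -0.27 (SE 0.10, adjusted p = 0.484; exact permutation p = 0.0132 before adjustment, two-sided), and -0.19 without the 5 arrays. JUND, the most constitutive JUN member, lay at 6.89, 7.16 and 7.22 in CON and at 7.13, 7.24 and 7.47 in NOCON. The groups of JUND overlapped between 7.13 and 7.22. Its difference was -0.14 (SE 0.06, adjusted p = 0.553; exact permutation p = 0.0186 before adjustment), and -0.08 without the 5 arrays and -0.02 after quantile normalization.

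FOSB, a FOS paralogue, had a higher mean in CON that came from 1 array. It lay at 4.22, 4.38 and 5.42 in CON and at 4.17, 4.34 and 4.43 in NOCON, and 5.42 was the value of CON 7. The difference of FOSB was 0.18 (SE 0.13, adjusted p = 0.67) with that array and 0.04 without it. The difference of FOSL1, a FOS-related factor at dim signal, was -0.10 (SE 0.06, adjusted p = 0.616). FOS itself differed by -0.02 (SE 0.07, adjusted p = 0.923), and FOSL2, JUN and the stress-induced repressor ATF3 by less than 0.1. The difference of FOSL2 was 0.17 without the 5 arrays.

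Of the EGR zinc finger factors, EGR1 lay at 4.69, 4.97 and 5.50 in CON and at 4.50, 4.93 and 5.48 in NOCON, with nearly the same range in both groups. Its difference was 0.11 (SE 0.15, adjusted p = 0.813), and 0.04 without NOCON 1 and also without CON 4, 0.06 without NOCON 4, 0.07 without CON 3 and also without CON 5, and 0.18 without NOCON 3. EGR3 lay at 3.56, 3.71 and 3.82 in CON and 3.62, 3.78 and 4.11 in NOCON, at dim signal (difference -0.14, SE 0.08, adjusted p = 0.591; -0.08 without the 5 arrays), and EGR2 differed by less than 0.1. The difference of the orphan nuclear receptor NR4A3 was 0.14 (SE 0.12, adjusted p = 0.702) and 0.03 without CON 7, where it stood at 4.66. NR4A1 and NR4A2, its paralogues, differed by less than 0.1, and NR4A2 by -0.12 without the 5 arrays.

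KLF2, a factor known for its induction by blood flow in endothelium, lay at 5.39, 5.54 and 5.81 in CON and at 5.39, 5.77 and 6.17 in NOCON. Its difference was -0.20 (SE 0.10, adjusted p = 0.583), and -0.12 without the 5 arrays. MYC, a growth-promoting factor, had a difference of -0.18 (SE 0.11, adjusted p = 0.622), and -0.07 without the 5 arrays. RHOB, an immediate early GTPase of endosomes and the cytoskeleton, lay at 5.12, 5.56 and 5.75 in CON and 5.52, 5.69 and 6.07 in NOCON. Of the CON arrays, 5 of 8 lay within the NOCON range of RHOB (difference -0.20, SE 0.10, adjusted p = 0.575; -0.21 without the 5 arrays).

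SGK1, a kinase induced by glucocorticoids and serum that regulates ion transport, lay at 4.86, 5.91 and 6.60 in CON and at 5.06, 5.49 and 6.18 in NOCON. Its difference was 0.25 (SE 0.22, adjusted p = 0.703) and 0.49 without the 5 arrays (SE 0.17), and its adjusted p ran from 0.222 to 0.82 over all alternatives. DUSP6, the cytoplasmic ERK phosphatase, differed by 0.13 (SE 0.20, adjusted p = 0.833), and 0.02 without CON 5, where it was highest. ZFP36L1 differed by -0.21 (SE 0.24, adjusted p = 0.773), and -0.05 without CON 7. KLF6 differed by 0.01 (SE 0.24, adjusted p = 0.988), and 0.29 without the 5 arrays. In all, 20 members differed by less than 0.1 in either direction over 16 arrays, from -0.09 to 0.04. Without the 5 arrays 12 of these 20 stayed under 0.1, and the 20 ran from -0.14 to 0.29. The differences of the IER genes over 16 arrays were -0.09 for IER2, -0.06 for IER3 and -0.07 for IER5. They were -0.14, 0.03 and -0.10 without the 5 arrays. The difference of DUSP4 was -0.06 over 16 arrays and 0.16 without the 5, and that of DUSP1 0.04 and 0.15.

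Upstream of these genes, kinases and promoter-bound factors were looked at with a list of 26, of which 23 were measured. None passed and none had an unadjusted limma p under 0.05, against 0.0598% and 8.67% of all probe sets. Of the 23, 19 had lower and 4 higher means in CON (median log2 difference -0.10), where 48.1% of all probe sets were lower. Without the 5 arrays 12 were lower and 11 higher (median -0.0015). The mean over the list was then 6.21 ± 0.05 in CON (SD, n = 5) and 6.20 ± 0.09 in NOCON (SD, n = 6). SRF, the factor that binds the serum response element, had the smallest p. SRF lay at 6.61, 6.85 and 7.14 in CON and 6.55, 6.75 and 6.91 in NOCON, with overlapping groups (difference 0.14, SE 0.07, adjusted p = 0.584). MAPK3, the kinase ERK1, had a difference of -0.36 (SE 0.27, adjusted p = 0.663), and its lowest array in CON, CON 7, stood at 4.09 against 5.78 in NOCON. Without CON 7 the difference of MAPK3 was -0.12, and without the 5 arrays 0.04.

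Of 30 further early response genes, 29 were measured, and none passed, where 0.0598% of all probe sets did. Lower means in CON were found for 20 and higher for 9 (median log2 difference -0.06), where 48.1% of all probe sets were lower. An unadjusted limma p under 0.05 was found for 1 of the 29, against 8.67% of all probe sets. On the other 11 arrays 15 were lower and 14 higher (median -0.0062). The gene with an unadjusted p under 0.05 was PLK3, a stress-responsive polo-like kinase at dim signal. PLK3 had a CON mean of 4.13 ± 0.17 (SD, n = 8) against 4.33 ± 0.18 (SD, n = 8) in NOCON (difference -0.20, SE 0.09, adjusted p = 0.557). MAFF, a small MAF factor that lacks an activation domain, had a difference of -0.15 (SE 0.07, adjusted p = 0.574), and -0.07 without the 5 arrays.

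Co-variation was described by the correlation of each pair of members between heifers. Over the 16 arrays the 630 pairs of members had a median Pearson r of 0.10, with 362 pairs above and 268 below 0. An r above 0.5 was found in 12.2% of the member pairs, against 19.3% of all pairs of genes, and an r below -0.5 in 6.51% against 18.0%. Without the 5 arrays the shares above 0.5 were 10.3% of member pairs and 8.05% of all gene pairs, with a median r of 0.05 between members. The shares below -0.5 were then 6.51% of member pairs and 7.69% of all gene pairs. Pairs share heifers, arrays and normalization, and these shares are descriptions with no test.

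**Figure D3:**
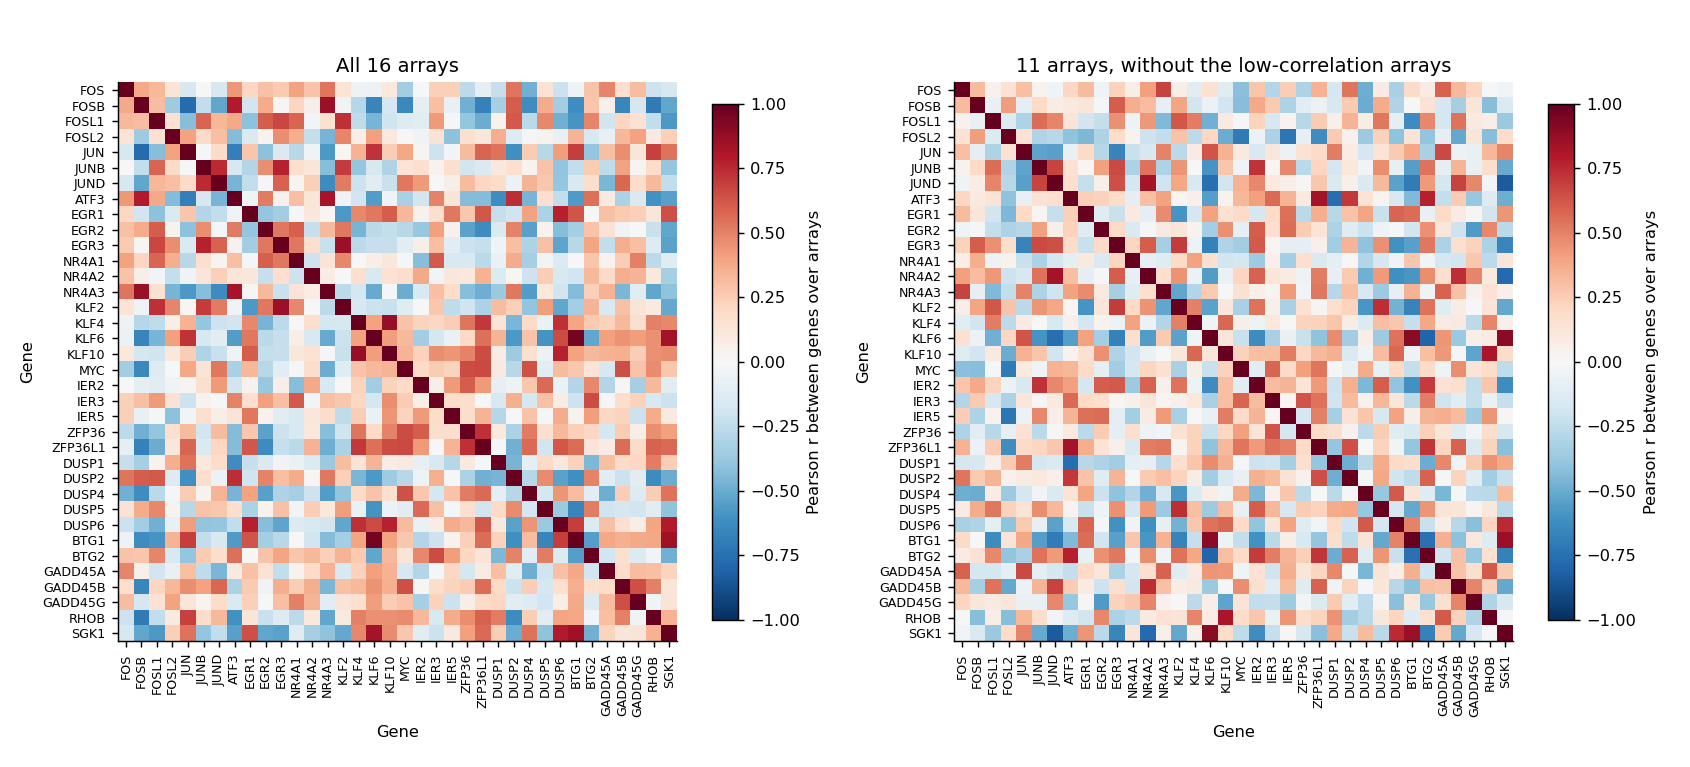
Pearson r between each pair of the 36 genes over all 16 arrays and over the 11 arrays of high correlation, red above and blue below 0. No single red block fills either panel (median r 0.10 and 0.05), KLF6, BTG1 and SGK1 stay red against each other in both, and the red between FOSB, ATF3 and NR4A3 on the left is gone or paler on the right.

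FOS was set against every other gene over the 16 arrays. Its r with the other 35 members ran from -0.48 to 0.54, with a median of 0.14. No member and no gene of the 18434 tested (0%) passed an adjusted permutation p of 0.05, either with Pearson's r or with Spearman's rho, and 2 of the 35 members had an unadjusted p under 0.05 with r and 3 with rho. The highest was DUSP2, a nuclear phosphatase induced in immune cells, with r = 0.54 and rho = 0.63 (permutation p = 0.0329 and 0.0117, adjusted p = 0.724 and 0.636), and r = 0.44 without the 2 arrays farthest from the FOS median. FOS with EGR1 gave r = 0.20 and rho = 0.06 (permutation p = 0.452 and 0.838, adjusted p = 0.782 and 0.968), and -0.04 without the 2 farthest arrays. FOS with JUNB gave r = -0.0026 and rho = 0.05 (permutation p = 0.993 and 0.855, adjusted p = 0.998 and 0.971), and 0.21 without the 2 farthest. Within groups the median r of FOS with the other members was 0.05 in CON and 0.11 in NOCON. The 5 genes outside the set with a pattern most like that of FOS over 16 arrays were CHRM4 (r = 0.80), ZNF569 (0.78), LOC100299180 (0.78), WNT2B (0.77) and PLXNA4 (0.77), none past adjustment (adjusted p = 0.724 each).

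Since FOS was dim, EGR1 and JUNB were each put in its place, a choice made after its level was seen. EGR1 lay above the median of all probe set means on every array, and 1 of its 35 correlations with members passed. This was with DUSP6, at r = 0.78 and rho = 0.81 (permutation p = 0.00032 and 0.00019, adjusted p = 0.0413 and 0.0334), among 241 of 18434 genes (1.31%) past the threshold with r and 3.97% with rho. The relation of EGR1 with DUSP6 had r = 0.75 in CON, 0.80 in NOCON and 0.85 without the 2 arrays farthest from the EGR1 median (permutation p = 0.00014, adjusted p = 0.117). Without the 5 low-correlation arrays it was r = 0.59 and rho = 0.65 (permutation p = 0.0584 and 0.0332, adjusted p = 0.617 and 0.578), and no gene (0%) passed. Both genes were lowest in NOCON 1, DUSP6 at 5.13 and EGR1 at 4.50. The 5 genes outside the set most like EGR1 over 16 arrays had r of 0.88 to 0.93 with it. DUSP6 is known as a target of the same ERK pathway that induces EGR1, and the part of that pathway in this relation was not tested. JUNB had no called member, and 0% of genes passed. Its highest r with members were 0.77 with EGR3 and 0.75 with JUND (permutation p = 0.00039 and 0.00131, adjusted p = 0.175 and 0.194), with rho of 0.69 and 0.77 and r of 0.66 and 0.67 without the 5 arrays.

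The closest pairs of members did not include FOS, EGR1 or JUNB. There were 6 pairs with r above 0.7 both over 16 arrays and over the 11 arrays of high correlation, and 4 of them joined KLF6, BTG1, SGK1 and DUSP6. These pairs were picked for their values and carry no test. KLF6 and BTG1 had r = 0.96 and rho = 0.93 over 16 arrays, r = 0.90 over the 11, 0.98 in CON and 0.94 in NOCON, and 0.91 without the 2 arrays farthest from the KLF6 median. KLF6 and SGK1 had r = 0.83 and rho = 0.89, and r = 0.90 over the 11 arrays. BTG1 and SGK1 had r = 0.85 and rho = 0.85, and r = 0.86 over the 11 arrays. SGK1 and DUSP6 had r = 0.79 and rho = 0.79, and r = 0.74 over the 11 arrays. The other 2 pairs were ATF3 with DUSP2 (r = 0.74 and 0.71) and EGR3 with KLF2 (r = 0.86 and 0.70), each with at least 1 dim member. After quantile normalization KLF6 with BTG1 had r = 0.89, KLF6 with SGK1 0.68 and ATF3 with DUSP2 0.27.

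In the biopsies, KLF6 was lowest in CON 7 (6.38), NOCON 5 (6.68) and CON 2 (6.81), where BTG1 stood at 5.30, 5.57 and 5.73, and these were its 3 lowest values. At the high end KLF6 stood at 7.98 in NOCON 2, 7.96 in CON 5, 7.94 in CON 4 and 7.91 in CON 1, where BTG1 stood at 6.67, 6.78, 6.83 and 6.79, its 4 highest values. Thus 3 of the 4 high biopsies were CON, and neither end held a single feeding group. The mean of the endothelial markers was 5.13, 5.97 and 6.04 in the 3 low arrays and 6.71, 7.07, 6.98 and 6.63 in the 4 high ones, and the part of endothelial cells in these values was not tested. NOCON 1, with an endothelial mean of 5.53, had KLF6 at 7.48.

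BTG2 ran the other way. KLF6 and BTG2 had r = -0.52 and rho = -0.54 over 16 arrays and r = -0.80 over the 11 arrays, -0.47 in CON and -0.78 in NOCON, and -0.30 without the 2 arrays farthest from the KLF6 median. BTG1 and BTG2, which are paralogues, had r = -0.55 and rho = -0.57, and r = -0.75 over the 11 arrays. IER2 and BTG2 had r = 0.48 and rho = 0.45, r = 0.70 over the 11 arrays, 0.14 in CON and 0.74 in NOCON. JUNB and IER2 had r = 0.16 and rho = 0.44 over 16 arrays and r = 0.72 over the 11, with 0.83 in CON and -0.24 in NOCON. For JUNB and IER2, 1 biopsy set the value: NOCON 1 had the highest JUNB (5.85) and the lowest IER2 (7.99), and without it r was 0.78.

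**Figure D4:**
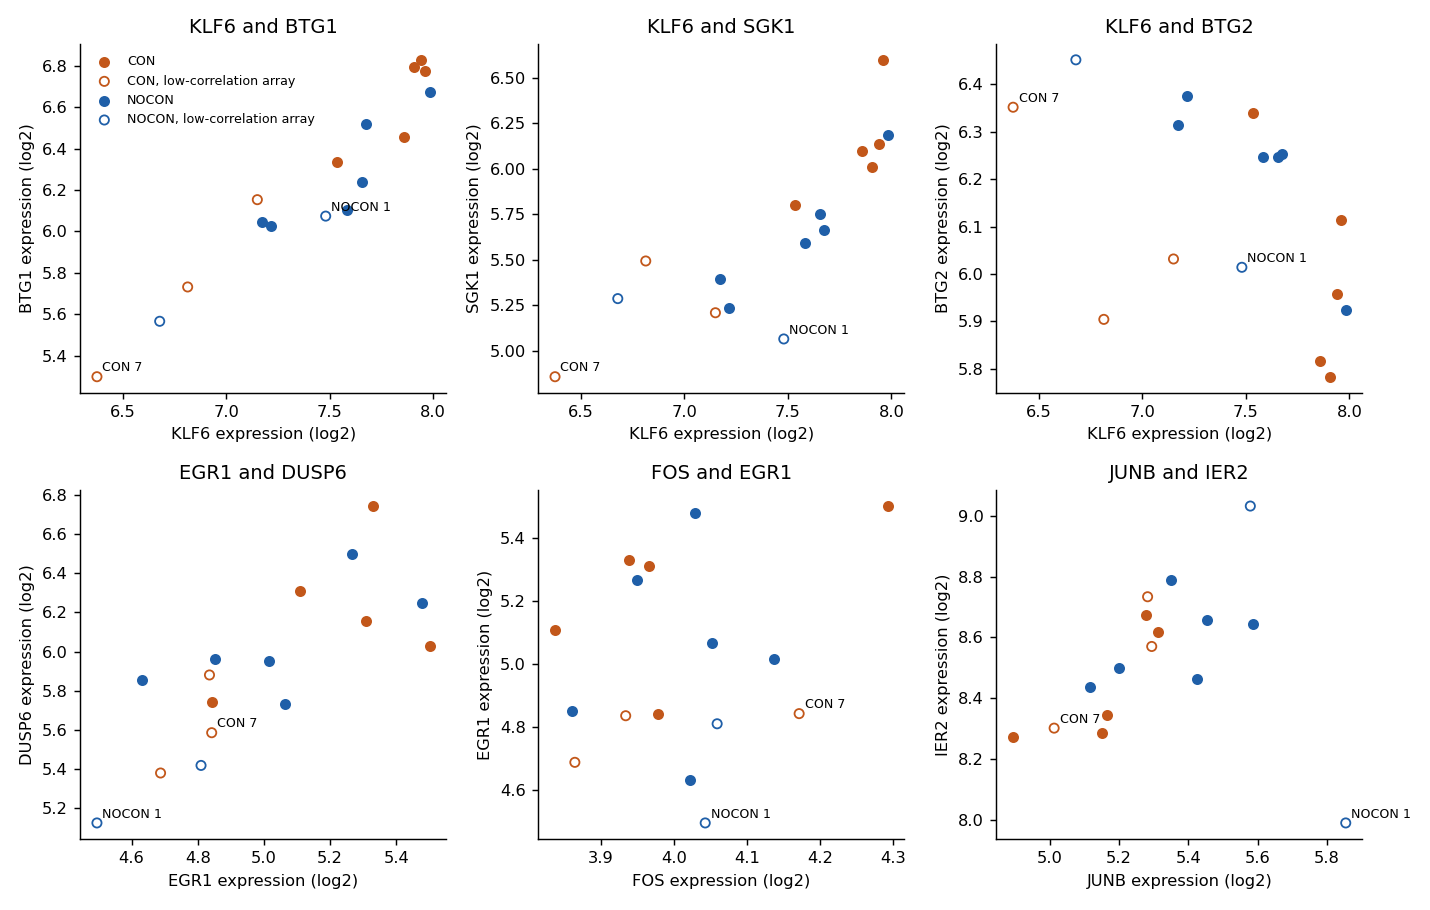
Expression (log2) of 6 pairs of genes in each biopsy, CON in orange and NOCON in blue, with open circles for the 5 arrays of low correlation. KLF6 with BTG1 (r = 0.96) and with SGK1 (r = 0.83) lie on a line, FOS with EGR1 (r = 0.20) do not, and NOCON 1 stands alone in the panel of JUNB and IER2.

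Single arrays also made pairs look tight. FOSB and NR4A3 had r = 0.86 over 16 arrays but rho = 0.38, and r = 0.00058 without CON 7. FOSB and ATF3 had r = 0.79, and -0.02 without CON 7. In CON 7 FOSB stood at 5.42, NR4A3 at 4.66 and ATF3 at 5.09, the highest value of each gene, while JUN (5.42), JUND, KLF6, MYC, BTG1, SGK1, DUSP4, ZFP36L1, RHOB and GADD45B had their lowest values there. In all, 10 members were lowest and 4 highest in CON 7.

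That array departed from the others by level, beyond these genes too. Of the 11 members whose mean over the other 15 arrays was 6 or more, 10 were lower in CON 7 (median deviation -0.77), as were 84.5% of all probe sets of that level (-0.88). Of the 17 members below 5, 12 were higher in CON 7 (median 0.16), as were 75.4% of all such probe sets (0.22). CON 7 also had the highest array median (4.57) and the narrowest interquartile range (1.49). In NOCON 1 the probe sets at 6 or more had a median deviation of -0.33, and the 11 members there -0.13. The deviations of FOSB (1.08), NR4A3 (0.92) and ATF3 (0.77) in CON 7 were the highest of the members, and were picked as such. How many probe sets below 5 deviated as far was not counted, so their median cannot set these genes apart. The part of the array as a whole in these deviations was not tested.

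**Figure D5:**
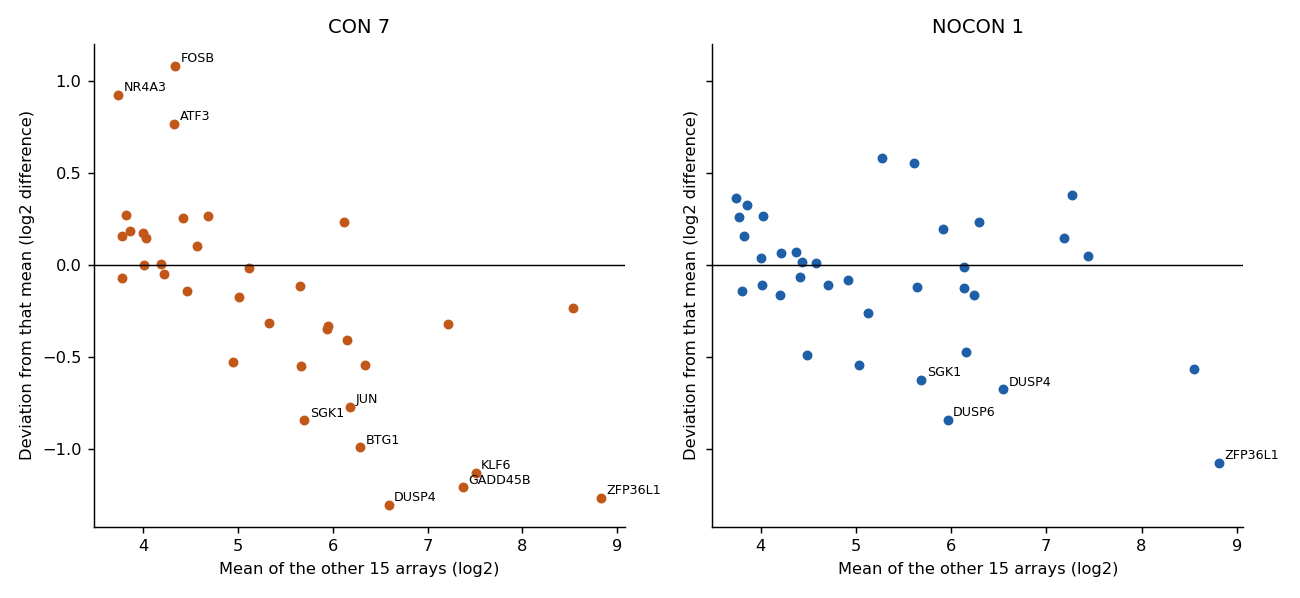
Deviation of each of the 36 genes in CON 7 and in NOCON 1 from its mean over the other 15 arrays (vertical axis, log2 difference) against that mean (horizontal axis, log2). In CON 7 most genes at 6 or more lie below 0 and FOSB, NR4A3 and ATF3 lie highest, and in NOCON 1 ZFP36L1 lies lowest.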

How the data were processed

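RNA from 16 biopsies was hybridised to Affymetrix arrays, 1 per heifer. The authors' deposited values are log2 expression per probe set. GCOS and RMA are named in the submitters' processing notes, with no version or chip definition given in the sources used here. The log base was read from the range of the values. Arrays give no counts, and the number of arrays limits the precision.

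Symbols came from the platform annotation, updated through RefSeq names (21 changed, none a member): 18790 of 26773 probe sets had 1 symbol. Every member could be named. The 5 genes most like FOS and the 2 smallest p of each pathway list were also named. Members and lists were chosen with earlier results of these data known.

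limma 3.58.1 (R 4.3.3) compared CON with NOCON over all probe sets, with Benjamini-Hochberg adjustment at 0.05. Exact permutation tests used all 12870 regroupings (smallest p 0.0001554), and correlations used 100000 permutations, adjusted over 18434 genes. Low-correlation arrays lay over 5 scaled median absolute deviations below the median. Fits were tested on simulated data. The labels do not say whether replicate numbers pair the heifers, and the main fit treated the heifers as unpaired.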

Additional observations from a re-analysis of the deposited data

Results flagged for a closer look

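Of 72 sets of 8 arrays (36 genes in each group), 14 held an array that stood far from the others by Dixon's test, which chance does in about 1 in 20. That is 19.4% of the sets, against 21.0% over all genes. Of all genes, 24.6% had CON 7 standing apart in this way and 11.2% NOCON 1, against 16.7% and 11.1% of the members. In CON 7 these were FOSB (5.42), ATF3 (5.09), NR4A3 (4.66) and EGR2 (4.05) on the high side and JUN (5.42) and ZFP36L1 (7.56) on the low side. In NOCON 1 EGR2 (4.18) was high, and ZFP36L1 (7.74), KLF10 (4.87) and KLF4 (3.99) were low. KLF10 was low in CON 2 as well (4.84). CON 7, NOCON 1 and CON 2 are arrays of low correlation with the rest. The remaining 3 values came from arrays of high correlation: FOSL2 was low (5.54) and MYC high (5.43) in NOCON 3, and DUSP5 was low in CON 1 (4.22).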

How the results depend on the processing

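No member was called under the alternatives run, except 1 (GADD45B) with the leading principal component of the residuals as a covariate. That fit, which by construction leaves the differences unchanged, called 1598 probe sets against 16 in the main fit. Array weights called 67 probe sets, the replicate block 4 and the mean over a gene's probe sets 2. Leaving out 1 array gave 0 to 0 called members. Members with an unadjusted p under 0.05 numbered 3, 6 with median centring, 6 with the component, 8 with array weights, and 2 to 5 with 1 array left out. Without the 5 low-correlation arrays they also numbered 3, but SGK1, BTG1 and RHOB took the place of GADD45B, JUNB and JUND. The share of all probe sets with such a p was 8.67% in the main fit and was not counted in the alternative fits. The higher counts are therefore not read as a gain particular to the members. The replicate block gave 0 called members and 3 with an unadjusted p under 0.05. The deviations of same-numbered heifers from their group means, over all probe sets, had r from -0.43 to 0.29. EGR1 in place of FOS gave 1 called correlation with a member against 0. The median residual SD, 0.209, was 0.147 without the 5 low-correlation arrays. The difference of FOS turned to 0.0029 with array weights and ran from -0.063 to 0.0017 with 1 array left out. That of KLF6 turned to -0.012 with median centring and ran from -0.094 to 0.17. Without the 5 low-correlation arrays 7 members changed sign: FOSL2, ATF3, NR4A1, IER3, ZFP36, DUSP4 and GADD45G. The cause was not tested. A filter keeping the 60% highest means left 28 members, without FOS, FOSL1, EGR2, EGR3, NR4A1, NR4A2, NR4A3 and DUSP2. Dim signals limit what could be seen in these genes.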
